A study of Mus musculus with 7 samples.

Results

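Class I molecules of the major histocompatibility complex show peptides made inside a cell to T cells. These data describe the transcripts of 10 genes of that pathway in ribosome-bound RNA of the mouse retina. The members were taken by gene symbol, and all 10 were among the 12756 genes of the table and among the 10899 genes tested. The samples were 4 libraries from adult C57BL/6 mice treated with anti-Dll4, which blocks a Notch ligand, and 3 libraries from adult C57BL/6 mice given a control IgG. Mice of both groups had the genotype Cdh5-CreERT2 Rpl22 tm1.1Psam. In such RiboTag mice the Cre, active in cells that use the Cdh5 promoter once tamoxifen is given, puts an HA tag on a ribosomal protein, and RNA is collected with an anti-HA antibody. The labels used here give no dose or time of either treatment and do not say whether a library is 1 animal, and the p-values therefore describe how libraries differ, which may in part be technical. QuantSeq libraries, which read transcripts at their 3′ ends, were made from the collected RNA.

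In the pathway, the proteasome cuts proteins into peptides, and interferons replace its 3 constitutive catalytic subunits with the inducible Psmb8, Psmb9 and Psmb10. The transporter formed by Tap1 and Tap2 carries peptides into the endoplasmic reticulum, where tapasin, encoded by Tapbp, helps to load them. The class I molecule itself is a heavy chain, here the classical H2-K1 and H2-D1 or the non-classical H2-T23, bound to beta-2 microglobulin, encoded by B2m. Endothelial cells carry class I molecules at rest and make more of them under interferon.

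The deposited values are normalised read counts (CPM, scaled to 1000000 reads on listed genes per library), and each library held 1356192 to 1771086 such reads. A single read was worth 0.565 to 0.737 CPM. The label of retinal endothelial cells was checked with 20 endothelial markers, all of which had reads. Together these markers made up 0.425% to 0.554% of the CPM in anti-Dll4 and 0.199% to 0.291% in control IgG libraries. The 16 rod photoreceptor markers made up 1.16% to 2.11% in anti-Dll4 and 2.53% to 2.64% in control IgG libraries, so RNA of other retinal cells was plentiful. In such bulk RNA, more cells of a type and more RNA per cell cannot be told apart, and neither can the cell from which a class I transcript came.

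Promoter windows of 9 members were found in the RefSeq table of the GRCm38.p6 build, with none for Tap2. The 250 bases before the start of transcription are shown for H2-K1 (the first of its 2 windows, chr17:34000348-34000597, minus strand), H2-D1 (chr17:35262844-35263093, plus strand) and B2m (chr2:122147437-122147686, plus strand). Their transcripts make up the class I molecule, and they had the smallest p-values among the members in the main fit. The window of H2-T23 (chr17:36032702-36032951, minus strand) is shown as the member with the opposite direction. The last sequence is the whole stretch of 225 bases between the starts of Psmb9 and Tap1 (chr17:34187331-34187555, plus strand), which lie head to head. Each is written 5′ to 3′ on the stated strand, and capitals mark matches to the motifs described after the sequences.

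H2-K1: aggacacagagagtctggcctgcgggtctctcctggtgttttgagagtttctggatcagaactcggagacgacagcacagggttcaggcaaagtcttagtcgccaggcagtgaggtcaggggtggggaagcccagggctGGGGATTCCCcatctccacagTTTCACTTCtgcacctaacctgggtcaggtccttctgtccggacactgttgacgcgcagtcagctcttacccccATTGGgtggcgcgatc

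H2-D1: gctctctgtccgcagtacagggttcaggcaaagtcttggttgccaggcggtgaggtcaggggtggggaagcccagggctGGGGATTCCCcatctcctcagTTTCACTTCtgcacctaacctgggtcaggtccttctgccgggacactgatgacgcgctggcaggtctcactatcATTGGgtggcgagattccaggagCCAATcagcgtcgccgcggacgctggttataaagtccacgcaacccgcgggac

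B2m: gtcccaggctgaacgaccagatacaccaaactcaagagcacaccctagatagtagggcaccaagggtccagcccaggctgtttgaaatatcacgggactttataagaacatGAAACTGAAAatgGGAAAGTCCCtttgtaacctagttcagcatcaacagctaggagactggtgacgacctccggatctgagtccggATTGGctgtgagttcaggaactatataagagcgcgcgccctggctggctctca

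H2-T23: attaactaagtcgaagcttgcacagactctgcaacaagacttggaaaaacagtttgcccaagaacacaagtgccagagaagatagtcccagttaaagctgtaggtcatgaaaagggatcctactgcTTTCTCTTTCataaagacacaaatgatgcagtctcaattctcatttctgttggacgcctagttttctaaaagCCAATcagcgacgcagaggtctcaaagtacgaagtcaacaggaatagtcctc

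Psmb9 to Tap1: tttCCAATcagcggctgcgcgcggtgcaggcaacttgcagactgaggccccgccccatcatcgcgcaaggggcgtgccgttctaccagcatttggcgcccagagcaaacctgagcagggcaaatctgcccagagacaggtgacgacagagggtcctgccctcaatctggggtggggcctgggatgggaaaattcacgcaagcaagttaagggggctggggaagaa

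Motifs were searched on both strands of the 250 bases before the start. The core of the interferon-stimulated response element was written as GAAA, any 2 bases, GAAA. The NF-kB site was written as GGG, any 2 bases, TT, any base, CC. The gamma-activated site was TTCNNNGAA and the CCAAT box CCAAT. A base could count towards more than 1 motif. H2-K1 and H2-D1 held the same NF-kB match, GGGGATTCCC, and B2m held GGGACTTTCC on its minus strand, which makes 3 of 9 members, against 4.11% of all 32851 windows of that length. The response element core was found in B2m (GAAACTGAAA) and H2-T23 (GAAAGAGAAA), 2 of 9 members, against 2.98% of all windows. A gamma-activated site was found in Psmb8 alone, with 7.02% of all windows holding one. A CCAAT box was found in 7 of the 9, against 33.8% of all windows; the match of Tap1 and that of Psmb9 are the same box, in the stretch they share. TTTCACTTC, a motif added after the windows had been read, occurred in H2-K1 and H2-D1 and in 0.402% of all windows. Laid over each other on the NF-kB match, the H2-K1 and H2-D1 windows were identical at 166 of 190 bases (87.4%), with a longest identical run of 47 bases. Matches are descriptions of letters and not evidence of binding, and the letters searched do not cover every form of these sites.

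Anti-Dll4 was set against control IgG to see how the members' transcripts differ when Dll4 is blocked. The heavy chains H2-K1 and H2-D1 and their partner B2m were about 3 to 4 times as high in the anti-Dll4 libraries. Their adjusted p-values were between 0.0656 and 0.0965, past no threshold. Of the 10 members, 0 passed a Benjamini-Hochberg adjusted p of 0.05 over all genes (limma), against 13 of 10899 genes (0.119%), all of them higher. By limma's voom on whole reads, which called 0.349% of all genes, 0 members passed as well. The unadjusted p was under 0.05 for 5 members, all higher in anti-Dll4 libraries, against 3.68% of all genes in that direction and 3.41% in the other. These members were Tap1, Psmb8, B2m, H2-D1 and H2-K1, and for the same 5 every anti-Dll4 library lay above every control IgG library, as it did for 3.84% of all genes tested (for 3.75% every anti-Dll4 library lay below). The change was positive for 9 of 10 members, against 45.5% of all genes. The median log2 change was 1.80 over the members and -0.14 over all genes tested. Under scaling on endothelial markers these medians were 0.84 and -1.06.

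H2-K1, H2-D1 and B2m crossed the threshold under some settings. With robust empirical Bayes all 3 passed, with adjusted p-values by limma of 0.0187, 0.0204 and 0.0264, and 0.266% of all genes did. H2-K1 and H2-D1 passed with scaling on the median gene (0.156% of genes) and with a filter of 10 CPM in 3 libraries (0.226%), and H2-K1 passed with no filter (0.118%). Without anti-Dll4 3, H2-K1 passed (limma adjusted p = 0.0301, 0.0826% of genes), and without control IgG 3, B2m passed (limma adjusted p = 0.0454, 0.184% of genes). No member passed without anti-Dll4 1 or 2 (0.0551% of genes each), anti-Dll4 4 (0.0275%), control IgG 1 (0.0367%) or control IgG 4 (0.101%). No member passed with pseudocounts of 0.5 or 5 CPM (0.119% and 0.11%), the rod covariate (0.00918%) or replicate blocks on title or column numbers (0.0275% and 0.0367%). Without the mean-variance trend 0 members and 0 genes passed. The unadjusted p by limma was then 0.0063 for Tap1 and 0.0139 for Psmb8. It was 0.0170 for H2-D1, 0.0178 for B2m and 0.0377 for H2-K1, so these 3 genes no longer had the smallest p-values.

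**Figure D1:**
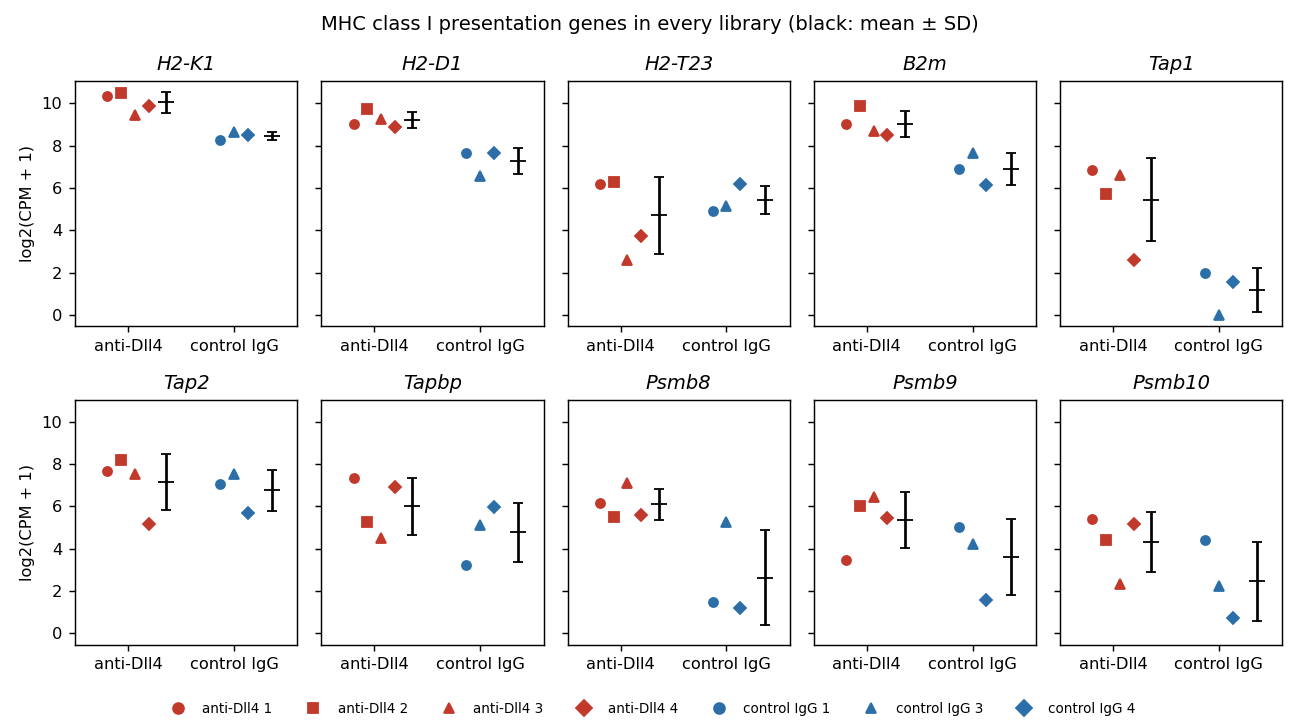
Level of each member as log2(CPM + 1) in the 4 anti-Dll4 libraries (red) and 3 control IgG libraries (blue), with the mean ± SD of each group in black. The groups do not overlap for H2-K1, H2-D1, B2m, Tap1 and Psmb8, and they overlap for the other members.

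H2-K1, a classical heavy chain, had 1294, 1456, 687 and 952 CPM in anti-Dll4 libraries 1 to 4, against 309, 401 and 361 CPM in control IgG libraries 1, 3 and 4. The lowest anti-Dll4 library, number 3, still exceeded the highest control IgG library. Mean levels were 1097 ± 345 CPM (SD, n = 4) in anti-Dll4 and 357 ± 46.1 CPM (SD, n = 3) in control IgG libraries, a log2 change of 1.57 ± 0.33 (SE, limma adjusted p = 0.0656). By p-value in the main fit H2-K1 was number 17 of all genes tested. The control IgG libraries were close together, while the anti-Dll4 libraries spread over a wider range.

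H2-D1, the other classical heavy chain of this strain, had 521, 857, 621 and 472 CPM in anti-Dll4 libraries 1 to 4, against 197, 92.2 and 197 CPM in control IgG libraries 1, 3 and 4. Control IgG 3 was the lowest library for H2-D1 and the highest control IgG library for H2-K1. The mean was 618 ± 171 CPM (SD, n = 4) in anti-Dll4 and 162 ± 60.7 CPM (SD, n = 3) in control IgG libraries, a log2 change of 1.97 ± 0.42 (SE, limma adjusted p = 0.0693).

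B2m, the light chain that every class I heavy chain needs to reach the cell surface, had 517, 923, 419 and 357 CPM in anti-Dll4 libraries 1 to 4, against 119, 202 and 69.7 CPM in control IgG libraries 1, 3 and 4. As for both classical heavy chains, anti-Dll4 2 was the highest library. The mean was 554 ± 255 CPM (SD, n = 4) in anti-Dll4 and 130.1 ± 66.9 CPM (SD, n = 3) in control IgG libraries, a log2 change of 2.11 ± 0.47 (SE, limma adjusted p = 0.0965). Among all pairs of members, the centred profiles of H2-K1 and B2m over the 7 libraries were the closest, with a root mean square distance of 0.53 log2 units, followed by H2-K1 and H2-D1 at 0.57.

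These 3 genes held 76.3% to 85.6% of the members' summed CPM in anti-Dll4 libraries and 69.2% to 76.8% in control IgG libraries. The sum over the 10 members was 2080 to 3822 CPM in anti-Dll4 and 819 to 1005 CPM in control IgG libraries. The ratio of H2-K1 to B2m was 1.58 to 2.67 in anti-Dll4 and 1.99 to 5.18 in control IgG libraries, and these ranges overlap.

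H2-T23, the heavy chain of Qa-1, a non-classical molecule read by receptors of natural killer and T cells, went the other way in mean level. It had 73.0, 76.5, 5.10 and 12.4 CPM in anti-Dll4 libraries 1 to 4, against 29.5, 34.7 and 72.3 CPM in control IgG libraries 1, 3 and 4. Anti-Dll4 1 and 2 were above the highest control IgG library and anti-Dll4 3 and 4 below the lowest, so the groups overlap. Its log2 change was -0.72 ± 1.19 (SE, limma adjusted p = 0.926), and -0.018 without anti-Dll4 3. The change turned positive with the mean of the rod markers as a covariate (1.09 ± 1.45) and with that of the endothelial markers (0.037 ± 2.57).

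Of the peptide transporter, Tap1 had the largest change among the members and few reads behind it. Its reads numbered 170, 84, 172 and 9 in anti-Dll4 libraries 1 to 4, against 5, 0 and 3 in control IgG libraries 1, 3 and 4. In CPM these were 114, 51.4, 97.4 and 5.08, against 2.95, 0 and 1.96. Anti-Dll4 1, 2 and 3 were far above the control IgG libraries, whose values were at or near the 1.69 to 2.21 CPM that 3 reads are worth, while anti-Dll4 4 was close to them. The mean was 66.9 ± 49.0 CPM (SD, n = 4) in anti-Dll4 and 1.64 ± 1.5 CPM (SD, n = 3) in control IgG libraries. The log2 change was 4.26 ± 1.67 (SE, limma adjusted p = 0.638), and it depends on the pseudocount of 1 CPM because the control IgG values are so low.

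Tap2, the partner of Tap1 in the transporter, had 202, 292, 184 and 35.6 CPM in anti-Dll4 libraries 1 to 4, against 135, 183 and 50.2 CPM in control IgG libraries 1, 3 and 4. The groups overlap, and within each group library 4 was the lowest. Its log2 change was 0.38 ± 0.71 (SE, limma adjusted p = 0.939), and the sign turned without control IgG 4 (-0.16 ± 0.76) and under scaling on the endothelial markers (-0.68 ± 0.73).

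Tapbp had 161, 37.3, 21.5 and 121 CPM in anti-Dll4 libraries 1 to 4, against 8.26, 33.9 and 61.9 CPM in control IgG libraries 1, 3 and 4. Anti-Dll4 1 and 4 were above every control IgG library and the other two lay within the control IgG range. Its log2 change was 1.24 ± 1.04 (SE, limma adjusted p = 0.834). It was 0.46 without control IgG 1, 0.79 without anti-Dll4 1 and 0.21 under scaling on the endothelial markers.

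Psmb8, the inducible subunit with chymotrypsin-like activity that takes the place of Psmb5, had 71.6, 44.0, 137 and 47.4 CPM in anti-Dll4 libraries 1 to 4, against 1.77, 36.9 and 1.30 CPM in control IgG libraries 1, 3 and 4. All anti-Dll4 libraries were above the control IgG libraries, of which number 3 was close to the lowest anti-Dll4 library and the other two had 3 and 2 reads. The log2 change was 3.46 ± 1.34 (SE, limma adjusted p = 0.635). It was 4.76 without control IgG 3, 2.87 without control IgG 1 and 2.74 without control IgG 4.

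Psmb9, which takes the place of Psmb6, had 10.0, 64.8, 87.2 and 42.3 CPM in anti-Dll4 libraries 1 to 4, against 31.3, 17.7 and 1.96 CPM in control IgG libraries 1, 3 and 4. Its groups overlap through anti-Dll4 1, and its log2 change was 1.75 ± 1.35 (SE, limma adjusted p = 0.814), or 0.73 without control IgG 4. Psmb9 and Tap1 are transcribed away from each other from the stretch shown above, and their reads differed within libraries: anti-Dll4 1 had 170 Tap1 reads and 15 Psmb9 reads, and anti-Dll4 4 had 9 Tap1 reads and 75 Psmb9 reads. Psmb10, which takes the place of Psmb7, had 40.8, 20.2, 3.97 and 35 CPM in anti-Dll4 libraries 1 to 4, against 20.7, 3.69 and 0.652 CPM in control IgG libraries 1, 3 and 4. Its groups overlap, and its log2 change was 1.86 ± 1.68 (SE, limma adjusted p = 0.856), with 2.84 without control IgG 1 and 0.99 without control IgG 4.

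The constitutive counterparts were set beside the inducible subunits. Reads come from 3′ ends, so CPM was compared between genes without division by transcript length. Psmb8 made up 28.0%, 24%, 40.4% and 17.1% of the Psmb8 and Psmb5 CPM in anti-Dll4 libraries 1 to 4, against 1.99%, 53.8% and 1.04% in control IgG libraries 1, 3 and 4. Control IgG 3 had the highest share of all and the other two control IgG libraries the lowest, so the groups overlap. Over the 3 pairs together, inducible subunits made up 26.0% to 44.5% in anti-Dll4 and 1.58% to 45.1% in control IgG libraries. Psmb5 itself had 139 to 230.4 CPM in anti-Dll4 and 31.7 to 124 CPM in control IgG libraries (log2 change 1.39 ± 0.61, limma adjusted p = 0.695). Psmb7 had a log2 change of 2.82 ± 1.65 (limma adjusted p = 0.75) and Psmb6 of -0.27 ± 0.85 (limma adjusted p = 0.965). Of these 3 constitutive subunits, 0 passed the threshold by limma or voom and 1 (Psmb5) had an unadjusted p under 0.05. The change was positive for 2 and negative for 1, with a median of 1.39. Under scaling on endothelial markers that median was 0.33, against -1.06 over all genes tested on that scale.

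**Figure D2:**
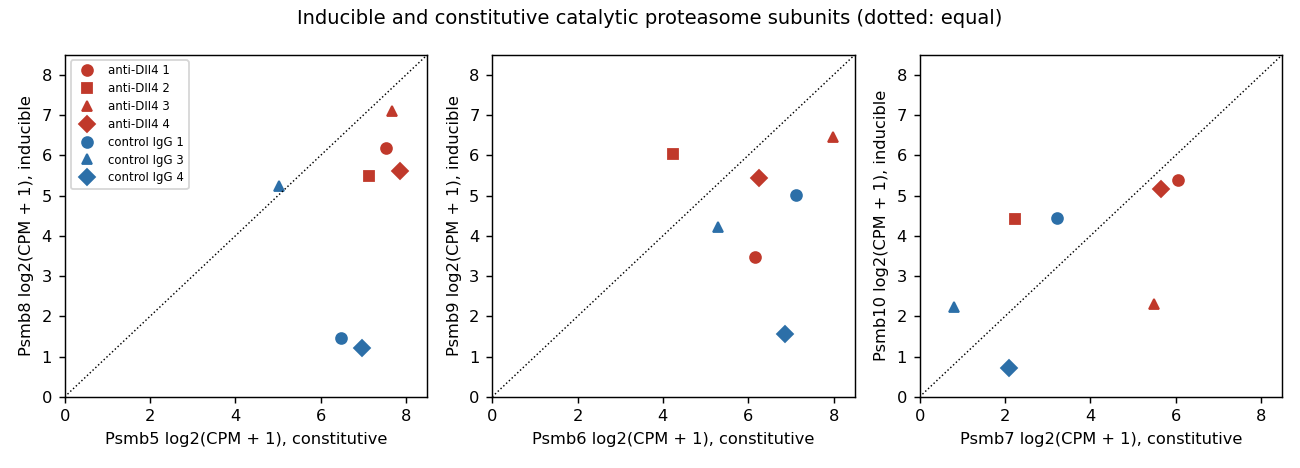
Level of each inducible catalytic subunit against its constitutive counterpart, both as log2(CPM + 1), in 4 anti-Dll4 libraries (red) and 3 control IgG libraries (blue), with a dotted line where both are equal. For Psmb8 and Psmb5, control IgG 1 and 4 sit low on the inducible axis and control IgG 3 sits at the line.

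The exact permutation test of mean CPM over all 35 arrangements of the libraries gave a two-sided p of 0.0286 for H2-D1, the smallest it can give. It gave 0.0571 for H2-K1, B2m and Tap1 and 0.0857 for Psmb8. These p-values are for single genes and are not adjusted.

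Of the 20 endothelial markers, 1 (Ly6c1) was called higher by limma and 0 lower, and by voom 0 were called. The change was positive for 16 and negative for 4 (Kdr, Flt1, Sox17 and Ptprb), and the median log2 change was 1.63. Their summed CPM was 4689, 4247, 5536 and 4751 in anti-Dll4 libraries 1 to 4, against 2039, 2909 and 1990 in control IgG libraries 1, 3 and 4. Per 1000 CPM of endothelial markers, H2-K1 had 276, 343, 124 and 200.4 CPM in anti-Dll4 libraries 1 to 4, against 152, 138 and 181 CPM in control IgG libraries 1, 3 and 4. On this scale anti-Dll4 3 was below all control IgG libraries and the groups overlap. H2-D1 had 99.3 to 202 CPM per 1000 in anti-Dll4 libraries and 31.7 to 99.2 in control IgG libraries. B2m had 75.1 to 217 CPM per 1000 in anti-Dll4 and 35 to 69.5 in control IgG libraries. The share of all genes whose groups stay apart on that scale was not counted.

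**Figure D3:**
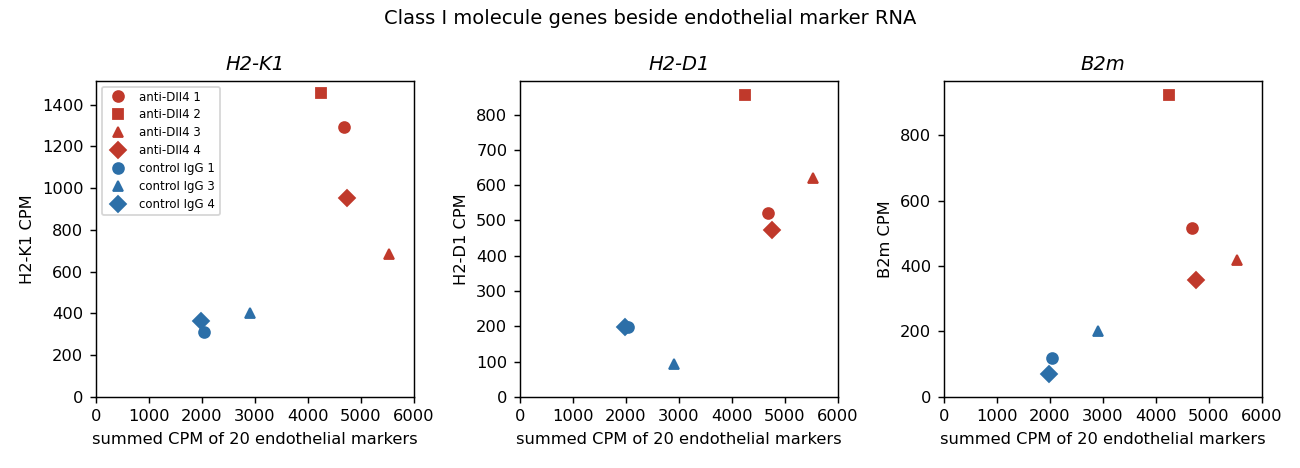
CPM of H2-K1, H2-D1 and B2m against the summed CPM of 20 endothelial markers in 4 anti-Dll4 libraries (red) and 3 control IgG libraries (blue). On both axes the anti-Dll4 points lie above the control IgG points, and within the anti-Dll4 group the library with the most endothelial marker CPM, number 3, has the least H2-K1.

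With libraries scaled on these markers, the limma fit over all genes called 136 genes (1.25%) and 0 members. The median log2 change over all genes tested was -1.06 on that scale. Leaving out each library in turn on that scale, 0 members passed, with 0% to 1.63% of genes called. With all 7 libraries on that scale, H2-K1 had a log2 change of 0.50 ± 0.39 (adjusted p = 0.497), H2-D1 0.90 ± 0.49 (adjusted p = 0.304) and B2m 1.05 ± 0.50 (adjusted p = 0.251). Tap1 had 3.47 ± 1.70 and Psmb8 2.59 ± 1.36 on that scale (limma adjusted p = 0.257 and 0.290). The change was negative for H2-T23 and Tap2. With the mean of the rod markers as a covariate, the log2 change of H2-K1 was 2.10 ± 0.39 (limma adjusted p = 0.0959), that of H2-D1 1.96 ± 0.54 and that of B2m 2.59 ± 0.60. With the mean of the endothelial markers as a covariate, 0 members and 0 genes passed. The log2 change was then 1.42 ± 0.72 for H2-K1, 3.05 ± 0.87 for H2-D1 and 0.91 ± 0.98 for B2m (limma adjusted p = 0.985 each), and 5.65 ± 3.62 for Tap1 and 0.31 ± 2.81 for Psmb8.

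**Figure D4:**
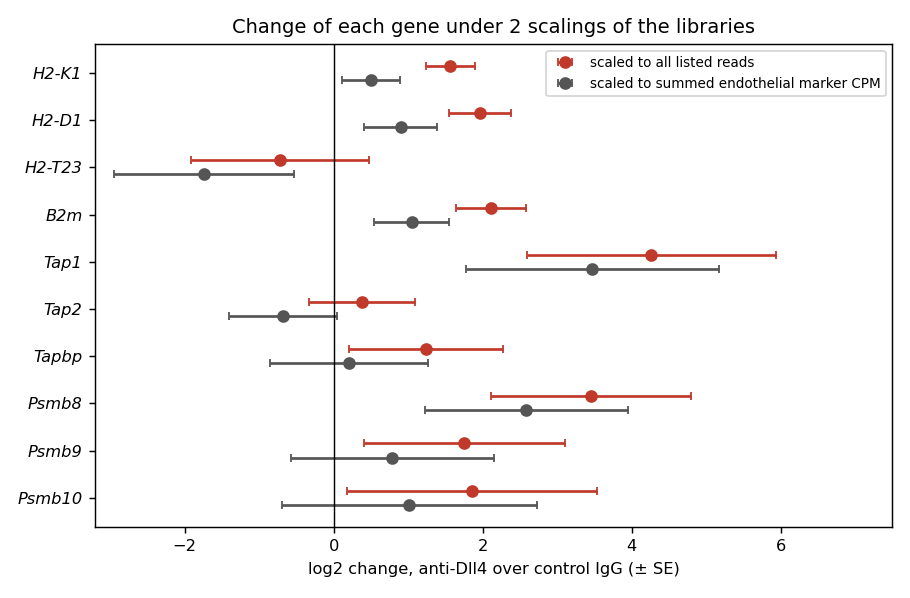
Log2 change ± SE of each member, anti-Dll4 over control IgG, with libraries scaled to all listed reads (red) and to the summed CPM of the endothelial markers (grey). Scaling on endothelial markers lowers every change, that of H2-K1 to 0.50 from 1.57.

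Leukocytes carry much class I, and their markers were measured in the same libraries. Of 14 microglia markers 5 had values, and their summed CPM was 26.3 to 279 in anti-Dll4 and 32.4 to 114 in control IgG libraries. Of 10 macrophage markers 6 had values, with 2.01 to 113 CPM in anti-Dll4 and 8.26 to 98.8 CPM in control IgG libraries. Of 14 lymphocyte markers 5 had values, with 10.4 to 103 CPM in anti-Dll4 and 25.4 to 109.9 CPM in control IgG libraries. None of these 3 sums separated the groups. Csf1r, the receptor that microglia and macrophages depend on, had 0 to 3.39 CPM in anti-Dll4 and 0.590 to 3.26 CPM in control IgG libraries. C1qa, a complement gene of microglia, had 38.8, 2.45, 2.27 and 8.47 CPM in anti-Dll4 libraries 1 to 4, against 0, 0.737 and 0 CPM in control IgG libraries 1, 3 and 4. Ptprc, the leukocyte antigen CD45, had 3.67 to 57.6 CPM in anti-Dll4 and 1.77 to 7.17 CPM in control IgG libraries. For C1qa every anti-Dll4 library lay above every control IgG library, as it did for 3.84% of all genes tested (log2 change 2.75 ± 1.30, limma adjusted p = 0.695). For Ptprc the groups overlap. Anti-Dll4 1 was the highest library for both genes. Cd3e, of the lymphocyte list, and Adgre1, of the macrophage list, were not among the listed genes under these symbols. Each listed gene had at least 10 reads in all. The part of leukocyte RNA in the class I levels was not tested.

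The rest of the pathway was described with lists of related genes, in which 0 genes passed the threshold in either direction by limma or by voom. Under scaling on endothelial markers 0 passed as well. On that scale the median log2 change over all genes tested was -1.06, and 134 of the 136 genes called were lower. Among 12 tested class I heavy chains outside the members, 5 changes were positive and 7 negative and 0 had an unadjusted p under 0.05; the median log2 change was -0.18, at 0.18 without control IgG 1, 0.46 without control IgG 3 and -0.74 under scaling on endothelial markers. H2-T24 had a log2 change of -1.40 ± 0.87 and H2-Q7 of 1.70 ± 1.35 (limma adjusted p = 0.763 and 0.819). H2-Q7 had the same reads as H2-Q9 in every library, and H2-Q6 the same as H2-Q8, so these pairs are not separate measurements. Among 9 tested peptide loading partners, 8 changes were positive and 1 had an unadjusted p under 0.05 (7.09% of all genes did), with a median of 0.57, which was -0.50 under scaling on endothelial markers. Hspa5, the endoplasmic reticulum chaperone BiP, had 911 to 1454 CPM in anti-Dll4 and 641 to 792 CPM in control IgG libraries (log2 change 0.68 ± 0.28, limma adjusted p = 0.678). Pdia3, the thiol oxidoreductase of the loading complex, had 45.3 to 199 CPM in anti-Dll4 and 33.9 to 42.5 CPM in control IgG libraries (1.54 ± 0.77, limma adjusted p = 0.706).

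The 5 proteasome activators and assembly factors had 2 positive and 3 negative changes and 1 unadjusted p under 0.05, with a median of -0.24 that was 0.16 without control IgG 1, -0.67 without control IgG 4 and -0.93 without anti-Dll4 2. Under scaling on endothelial markers all 5 changes were negative, with a median of -1.26, against -1.06 over all genes tested on that scale. Pomp, the chaperone of proteasome assembly, had 484 to 645 CPM in anti-Dll4 and 161 to 418 CPM in control IgG libraries (log2 change 0.99 ± 0.39, limma adjusted p = 0.646), and Psme4, an activator of the nucleus, had a log2 change of -0.83 ± 0.50. Psme1 and Psme2, the subunits of the interferon-inducible activator, had log2 changes of -0.48 ± 1.54 and -0.24 ± 1.15. The last pair was named after its values were seen.

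Of 18 tested transcription regulators of class I genes, 15 changes were positive and 3 had an unadjusted p under 0.05. Their median was 0.67, and it was 1.26 without anti-Dll4 1, 0.30 without anti-Dll4 3 and 0.18 without anti-Dll4 4. Under scaling on endothelial markers it was -0.18, against -1.06 over all genes tested on that scale. Stat3 had 81.0 to 249.8 CPM in anti-Dll4 and 14.7 to 52.5 CPM in control IgG libraries (log2 change 2.11 ± 0.78, limma adjusted p = 0.593). Nfyc, a subunit of the factor that binds CCAAT boxes, had 0.612 to 5.65 CPM in anti-Dll4 and 47.6 to 95.9 CPM in control IgG libraries (-4.42 ± 1.58, limma adjusted p = 0.536). Irf1, an activator of class I genes that is itself induced by interferon, had 237, 259.9, 137 and 126 CPM in anti-Dll4 libraries 1 to 4, against 78.5, 134 and 5.87 CPM in control IgG libraries 1, 3 and 4 (2.11 ± 0.84, limma adjusted p = 0.655). Nlrc5, the class I transactivator, was too low to be tested, with 0, 49, 2 and 1 reads in anti-Dll4 libraries 1 to 4, against 0 reads in each control IgG library. Irf1 and Nlrc5 were named after their values were seen.

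The 8 tested interferon receptors and Jak kinases had 4 positive and 4 negative changes and 1 unadjusted p under 0.05, with a median of -0.18 that was -0.70 without control IgG 4. Under scaling on endothelial markers all 8 changes were negative, with a median of -1.16, against -1.06 over all genes tested on that scale. Ifnar1, a chain of the type I interferon receptor, had 0, 1, 1 and 0 reads in anti-Dll4 libraries 1 to 4, against 20, 2 and 19 reads in control IgG libraries 1, 3 and 4 (limma adjusted p = 0.688). Ifnar2, the other chain, had a log2 change of 0.78 ± 0.84. Class II genes, which serve antigen presentation by professional cells, were near the limit of detection. Their 7 genes with values summed to 15.9 to 56.9 CPM in anti-Dll4 and 9.59 to 18.2 CPM in control IgG libraries. The 4 tested had 0 unadjusted p-values under 0.05 and a median change of 0.32, which was -0.16 under scaling on endothelial markers, -0.013 without control IgG 1 and 0.70 without control IgG 4, with 0.69 ± 1.53 for Ctss and 0.41 ± 0.98 for Cd74, the invariant chain (limma adjusted p = 0.948 and 0.953).

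**Figure D5:**
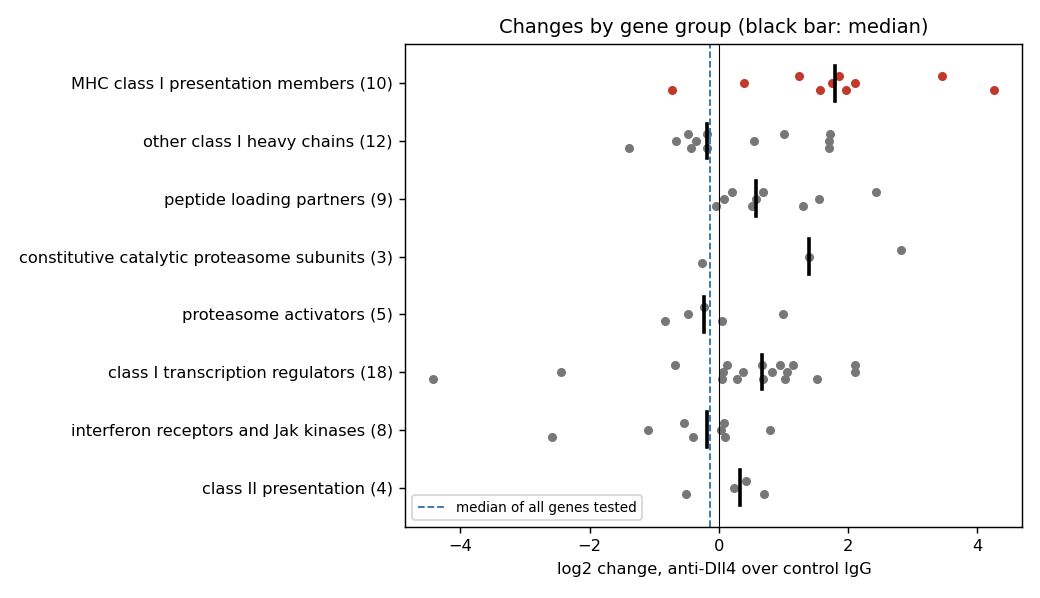
Log2 change, anti-Dll4 over control IgG, of each tested gene in the class I members (red) and 7 related lists (grey), with the number tested in brackets, the median of each list as a black bar and the median of all genes tested (-0.14) as a dashed line. The members have a median of 1.80, with H2-T23 as the only member below 0. Under scaling on endothelial markers, not drawn here, the medians are 0.84 for the members and -1.06 for all genes tested.

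The genes with the profile most like the mean of the members were searched among 7492 genes with a mean of at least 3 log2 units, by the root mean square distance of centred log2(CPM + 1) values over the 7 libraries. The nearest were Eipr1 (0.28 log2 units), Slc2a1, the glucose transporter GLUT1 (0.28), D630045J12Rik (0.30), Slc7a5, the carrier of large neutral amino acids (0.32), and Ly6c1, an endothelial surface antigen (0.32). Ly6c1 was also the nearest to B2m (0.35), followed by Lrsam1 (0.38) and Rassf3 (0.44). Nearest to H2-K1 were Tsc22d1 (0.22), Trpc4ap (0.26) and Dnajc18 (0.30). Of these genes only Ly6c1 passed the threshold, with 732 ± 200.4 CPM (SD, n = 4) in anti-Dll4 and 175 ± 51.8 CPM (SD, n = 3) in control IgG libraries (limma adjusted p = 0.0319), and it did not pass by voom.

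Reads shared between similar genes limit some of these values. In GENCODE M21, words of 75 bases, the read length, were taken from the last 500 bases of each member's protein-coding transcripts and looked for in transcripts of other genes. For H2-K1, 1.81% of the words occurred in other genes, among them H2-D1, H2-Q6 and H2-Q7, and for H2-D1 0%. For H2-T23 the share was 20%, among transcripts that include H2-T-ps and genes outside the complex, so its reads are the least certain. For Tapbp it was 1.39%, all in the neighbouring Zbtb22, and for B2m, Tap1, Tap2, Psmb8, Psmb9 and Psmb10 it was 0%. Exons of Tap1 and Psmb9 overlap on opposite strands in this annotation, and exons of Tap2, Psmb8 and Tapbp overlap antisense transcripts. Tapbp also overlaps Zbtb22 on the same strand. Whether the counting used strand is not given in the sources used here.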

How the data were processed

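The deposited table holds log10 values per gene and library. Turned back from log10, they were CPM plus 1, with CPM summing to 1000000 per library. All (100%) were whole numbers of reads once divided by the library's smallest step (tolerance 1e-06), and those reads were used where reads are given. The design had assumed log CPM of an unstated base. Each listed gene had at least 10 reads in all. Cutadapt, TopHat2 and bedtools are named, without versions or roles, per the submitters' processing notes, which also name hg19 although the symbols are mouse symbols; the counting rule is not given in the sources used here. Of the columns, control IgG 1 matches no title by number (the remaining title has the number 15) and was used as a control IgG library without a number of its own. No molecular identifiers are named per the labels' protocols, and reads may be copies of 1 molecule.

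The 10899 genes that reached 1 CPM in 3 or more libraries were fitted on log2(CPM + 1) with limma 3.58.1 in R 4.3.3 (antibody as the only term, mean-variance trend, two-sided, Benjamini-Hochberg over all genes). Errors of a change are standard errors. The added 1 CPM shrinks changes of low genes. The fit was tested on simulated data with a low and a high spread between libraries. Only the run with low spread had criteria to meet, so the test does not cover genes that vary widely between libraries. Members and lists were chosen with earlier results of these data known. Named are all members, from each list genes past the threshold or the 2 with the smallest p, the nearest profiles and markers of immune cells. Alternatives covered the pseudocount, the filter, the trend, scaling, covariates, a replicate block and leaving out each library.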

Additional observations from a re-analysis of the deposited data

Results flagged for a closer look

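The level of H2-D1 per 1000 CPM of endothelial markers had a library apart from the others. In anti-Dll4 libraries 1 to 4 it was 111, 202, 112 and 99.3 CPM per 1000, and the gap from anti-Dll4 2 to the next library was 0.874 of the whole range, above the critical value of 0.829 for 4 libraries. Control IgG libraries 1, 3 and 4 had 96.7, 31.7 and 99.2 CPM per 1000. Of 39 sets of 4 anti-Dll4 values examined, this was the only one past that value, and chance flags about 1 in 20.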

How the results depend on the processing

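The count of genes past the threshold, 13, was 3 to 20 with a library left out. It was 0 without the mean-variance trend, 29 with robust empirical Bayes (28 higher, 1 lower), 38 by voom (14 higher, 24 lower), 136 with endothelial scaling (2 higher, 134 lower), 1 with the rod covariate and 0 with the endothelial covariate. The count of members, 0, was 0 to 1 with a library left out: H2-K1 passed without anti-Dll4 3 (adjusted p = 0.0301) and B2m without control IgG 3 (adjusted p = 0.0454). It was 1 without a filter (H2-K1, adjusted p = 0.0499), 2 at 10 CPM in 3 libraries, 3 with robust empirical Bayes and 2 with scaling on the median gene. Of 20 alternatives, H2-K1 passed in 5 (adjusted p = 0.0187 to 0.985 over all), H2-D1 in 3 (0.0204 to 0.985) and B2m in 2 (0.0264 to 0.985), and their changes were positive in each; no other member passed in any. With endothelial scaling 0 members passed with any library left out (0 to 0).

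With a replicate block, 3 genes passed on title numbers and 4 on column numbers (an alternative chosen after seeing the data), with 0 members in both. A library alone in its block adds nothing to the change. On title numbers anti-Dll4 1, anti-Dll4 2 and control IgG 1 were alone, so those changes rest on libraries 3 and 4 of each group. On column numbers anti-Dll4 2 was alone, and the H2-K1 change, 1.41, equals that without anti-Dll4 2. Deviations of same-numbered libraries correlated at 0.046 to 0.067 across genes. Those of differently numbered anti-Dll4 and control IgG libraries correlated at -0.037 to 0.015, so the same-numbered values were small but the highest. The main fit took no pairs, and whether the numbers mark pairs was not tested. With the block on title numbers the log2 change was 1.09 for H2-K1, 2.00 for H2-D1 and 1.69 for B2m. The change of H2-T23 (-0.72) was 1.09 with the rod covariate and 0.037 with the endothelial covariate, and that of Tap2 (0.38) was -0.68 with endothelial scaling, -1.01 with the endothelial covariate, -0.24 with the block on title numbers and -0.16 to 1.03 with a library left out. With the endothelial covariate Psmb9 was at -0.31, Psmb10 at -1.02, Psmb8 at 0.31 (3.46 without it) and B2m at 0.91 (2.11 without it). Tapbp (1.24) was at 0.16 with the block on title numbers, which rests on libraries 3 and 4 of each group. Why the changes moved under the other settings was not tested. With a library left out, list medians were 1.66 to 2.13 for the members, -0.32 to 0.46 for other heavy chains, 0.37 to 0.84 for loading partners, 0.83 to 1.80 for constitutive subunits, -0.93 to 0.16 for activators, 0.18 to 1.26 for regulators, -0.70 to -0.082 for interferon receptors and Jak kinases and -0.013 to 0.70 for class II. Depth limits Tap1, Psmb8 and Psmb10, which had 8, 55 and 41 reads over all control IgG libraries.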

Other observations

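Further class I-like heavy chains were read unevenly between libraries. Fcgrt, the neonatal Fc receptor that carries IgG across cells, had 8, 29, 183 and 18 reads in anti-Dll4 libraries 1 to 4, against 54, 0 and 8 reads in control IgG libraries 1, 3 and 4 (log2 change 1.71 ± 1.75, limma adjusted p = 0.869). Hfe, a regulator of iron uptake, had 0, 1, 1 and 72 reads in anti-Dll4 libraries 1 to 4, against 20, 0 and 9 reads in control IgG libraries 1, 3 and 4. H2-M3, which presents formylated peptides, was too low to be tested, with 10, 0, 0 and 1 reads in anti-Dll4 libraries 1 to 4, against 43, 0 and 0 reads in control IgG libraries 1, 3 and 4. For each of the 3 genes, a single library held most of its group's reads. H2-Q4, the most deeply read heavy chain outside the members, had 88.4 to 216 CPM in anti-Dll4 and 77.3 to 113 CPM in control IgG libraries (log2 change 0.55 ± 0.60, limma adjusted p = 0.882). These genes were named after their values were seen.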
